A study of Mus musculus with 4 samples.

Results

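A set of 9 genes that carry fatty acids into and through heart cells was followed across the cell types of the embryonic ventricle: *Lpl*, *Gpihbp1*, *Cd36*, *Fabp4*, *Fabp5*, *Fabp3*, *Cpt1a*, *Cpt1b* and *Acadl*. They are 9 of the 32285 genes in the count matrices and were chosen by name for their roles. The data are droplet single-cell RNA sequencing of mouse ventricles at embryonic day (E) 14.5, from 2 control libraries (Tie2Cre; *Ets1* fl/+) and 2 *Ets1* eKO libraries (Tie2Cre; *Ets1* fl/fl), all on a C57BL/6 background, untreated, of both sexes and listed in batch 1. Each library pooled the ventricles of 3 embryos, so the spread between libraries is that between pools. Controls also carried Tie2Cre and a floxed *Ets1* allele, so the comparison is of both alleles against 1 allele deleted in Tie2Cre cells. Tie2Cre acts in the endothelium and endocardium and is known to act in blood cells as well.

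In the heart, lipoprotein lipase (*Lpl*) is made by cardiomyocytes and other parenchymal cells and frees fatty acids from lipoproteins, while GPIHBP1 carries the enzyme across the capillary endothelium and holds it at the vessel lumen. CD36 takes fatty acids up across the cell membrane, and the binding proteins FABP4 and FABP5 in endothelium and FABP3 in muscle hold them inside the cell. CPT1A and CPT1B pass long-chain fatty acids to the mitochondria, where ACADL catalyses the first step of their oxidation. Coronary endothelial cells line the vessels of the heart wall, the endocardium lines the chambers and valves, and the compact and trabecular layers are the outer and inner muscle of the ventricle.

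The 4 libraries held 45551 barcodes and 399075562 unique molecular identifiers (UMIs), of which 36408 cells passed the filters. The shallowest library was *Ets1* eKO 2, with a median of 6509.5 UMIs per kept cell against 9792 to 10640 in the other 3. Pairs of libraries shared 19 to 47 barcodes, at most 0.44% of the smaller library. Cells were assigned to classes by marker genes that include none of these 9 members: 1335 coronary endothelial cells (207 to 460 per library), 4764 endocardial cells (810 to 1840), 18587 cardiomyocytes (2807 to 6386), 7605 fibroblasts, 765 epicardial cells and 696 immune cells. The class called coronary endothelium held 1584 to 2042 CPM (UMIs of a gene or list per 1000000 UMIs of the class) of the 14 coronary markers, against 410 to 477 CPM in the endocardium, a difference that the gate sets, since these markers split the endothelial cells. In control coronary endothelium *Ets1* itself stood at 363 and 313 CPM, and in that of *Ets1* eKO at 175 and 129 CPM (log2 fold change -1.08 ± 0.17 SE, edgeR adjusted p = 0.022). The control endocardium held 279 and 270 CPM, against 121 and 95.4 CPM with both alleles floxed (-1.29 ± 0.14, edgeR adjusted p = 0.0042). UMIs counted at the 3′ end need not cover the deleted part of *Ets1*, so these values are not a measure of the deletion itself.

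On the GRCm38 assembly (mm10), *Lpl* lies at chr8:68880491-68907448 and *Gpihbp1* at chr15:75596628-75599481, both on the plus strand. *Cd36* spans chr5:17781690-17888801 on the minus strand. *Fabp4* (chr3:10204088-10208576, minus) and *Fabp5* (chr3:10012548-10016607, plus) share a chromosome, and *Fabp3* is at chr4:130308595-130315463 on the plus strand. *Cpt1a* is at chr19:3322334-3385733 (plus), *Cpt1b* at chr15:89416405-89425863 (minus) and *Acadl* at chr1:66830839-66863277 (minus). All 9 are annotated as protein coding, and UMIs were summed over the whole gene.

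ETS1 is an ETS-family factor, whose members bind a GGAA core, and the promoters of *Cd36* and *Fabp3* are shown because the levels of these genes separate the cell classes most clearly among the members with a promoter sequence in the RefSeq table used (GRCm38.p6; *Cd36*, *Fabp3*, *Cpt1a* and *Acadl*). Each run holds the 250 bases before the RefSeq start, 5′ to 3′ on the gene's strand, with GGAA and its reverse complement TTCC in capitals. The *Cd36* window is chr5:17835897-17836146 (minus strand), inside the annotated span of the gene. The *Fabp3* window is chr4:130308488-130308737 (plus strand), and its bases from 130308595 on also lie inside the annotated gene.
*Cd36*: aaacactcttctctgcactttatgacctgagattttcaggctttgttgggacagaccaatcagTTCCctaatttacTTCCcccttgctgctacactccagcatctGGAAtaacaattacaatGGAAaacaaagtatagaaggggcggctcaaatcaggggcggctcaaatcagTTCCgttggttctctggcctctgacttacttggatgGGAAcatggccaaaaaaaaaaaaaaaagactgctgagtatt
*Fabp3*: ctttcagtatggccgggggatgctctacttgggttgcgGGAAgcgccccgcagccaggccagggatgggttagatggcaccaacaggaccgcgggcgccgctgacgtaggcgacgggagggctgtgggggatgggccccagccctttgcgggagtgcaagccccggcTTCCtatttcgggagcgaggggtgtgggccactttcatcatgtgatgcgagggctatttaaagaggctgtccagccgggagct
Counted on both strands, GGAA occurred 6 times in the *Cd36* window and 2 times in each of the *Fabp3*, *Cpt1a* and *Acadl* windows. The median over all 32851 windows of this length was 3, and 93.4% of them held at least 1 match. The longer form CCGGAA, which contains the core, was in none of the 4 windows and in 12.0% of all windows. The nuclear receptor core AGGTCA was found once each in *Cd36* and *Cpt1a* and in 14.02% of all windows. These are matches of letters only.

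Levels were compared over the 9 classes that were kept apart for this purpose (20 cells fell in more than 1 of them). They are given as CPM of all UMIs of a class in a library, without a test, and are compared between classes for 1 gene at a time, since a 3′ count does not rank genes against each other.

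**Figure D1:**
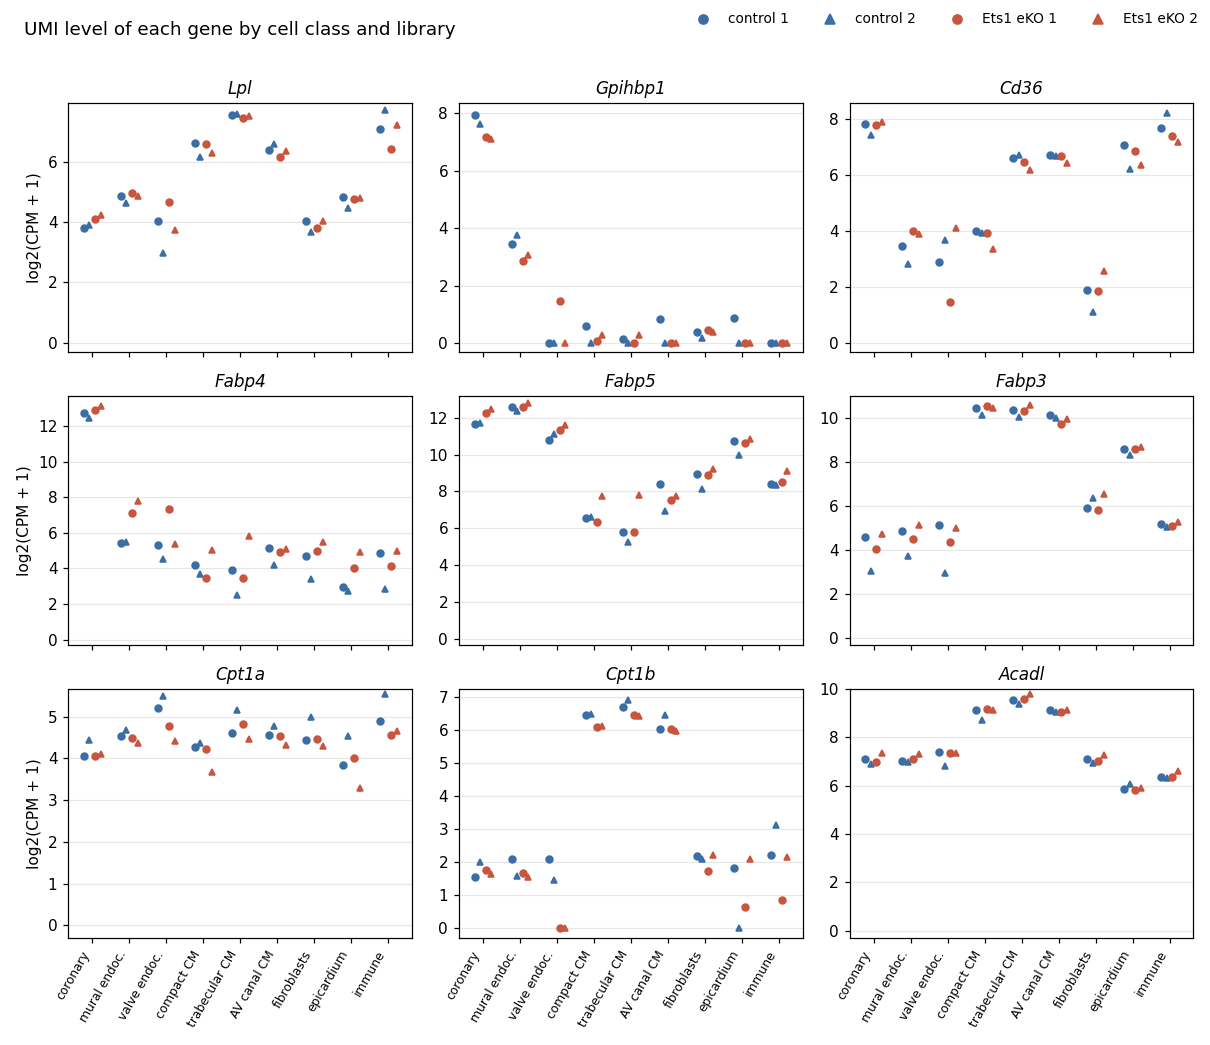
Level of each gene, as log2(CPM + 1), in 9 cell classes (CM, cardiomyocytes; AV, atrioventricular; endoc., endocardium), with 1 point per library, controls in blue and *Ets1* eKO in red. *Fabp4* and *Gpihbp1* stand highest in the coronary endothelium, *Fabp3*, *Cpt1b* and *Acadl* in cardiomyocytes, and *Cpt1a* is at a like level in every class.

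Of the lipase pair, *Lpl* was highest in trabecular cardiomyocytes, at 187, 189, 174 and 181 CPM in control 1, control 2, *Ets1* eKO 1 and *Ets1* eKO 2, the order used for all values below. Immune cells held 133, 206, 85.2 and 147 CPM, a range that overlapped that of trabecular cells, and compact cardiomyocytes 70.5 to 96.1 CPM. The coronary endothelium held 13.1, 13.9, 16.01 and 17.7 CPM of *Lpl*, and fibroblasts 11.8 to 15.5 CPM. *Lpl* was thus lowest in the coronary endothelium, valve endocardium and fibroblasts, whose ranges overlapped.

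*Gpihbp1*, which holds the enzyme at the vessel wall, was found mainly in the coronary endothelium. Its level was 247, 195, 143 and 136 CPM in the coronary endothelium and 6.26 to 12.6 CPM in the mural endocardium, a mean ratio of 19.9, and the ranges did not overlap. Valve endocardium held 1 *Gpihbp1* UMI in all 4 libraries together and immune cells none, while cardiomyocytes held 7 to 30 UMIs per library, at most 0.40 CPM.

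*Cd36* was found in several unlike classes. It stood at 223, 171, 221 and 233 CPM in the coronary endothelium and at 202, 293, 166 and 145 CPM in immune cells, and these ranges overlapped. Epicardium (73.9 to 133 CPM), atrioventricular canal cardiomyocytes (85.4 to 105 CPM) and trabecular cardiomyocytes (70.7 to 103 CPM) came next and overlapped too. Compact cardiomyocytes held 9.32 to 15.2 CPM, mural endocardium 6.17 to 15.1 CPM and fibroblasts 1.19 to 4.93 CPM, so that the vessel lining and the chamber lining differed in *Cd36* by a wide margin in every library.

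*Fabp4*, the binding protein of capillary endothelium, was the most restricted of the 3. Its level in the coronary endothelium was 6797, 5649, 7735 and 9177 CPM, and the mean was 65.3 times that of the mural endocardium, the next class. All other classes held 4.72 to 55.5 CPM of *Fabp4*, apart from valve endocardium (22.2 to 163 CPM). In cells thinned to 2000 UMIs, 94.2% to 95.7% of coronary endothelial cells had a *Fabp4* UMI, against 1.67% to 4.02% of cardiomyocytes and 1.70% to 6.14% of fibroblasts, which should lack it. Median depths before thinning were 6288.5 to 11939 UMIs in the coronary cells and 8344 to 13401 UMIs in cardiomyocytes. The low share in these 2 classes serves as the background level, and in both of them it was highest in *Ets1* eKO 2.

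*Fabp5* was shared by all of the heart's lining cells. Mural endocardium held 6071, 5266, 6098 and 7055 CPM, coronary endothelium 3277, 3302, 4781 and 5696 CPM, valve endocardium 1760, 2221, 2572 and 3131 CPM and epicardium 1733, 1010, 1564 and 1866 CPM. Mural endocardium was the higher in each library, although the ranges of the first 2 classes overlapped across libraries. Mural and valve cells of the endocardium did not overlap. Fibroblasts (278 to 600 CPM) and immune cells (331 to 546 CPM) followed, and compact and trabecular cardiomyocytes were lowest (36.9 to 225 CPM).

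*Fabp3*, the muscle binding protein, was at 1342, 1094, 1345 and 1447 CPM in all cardiomyocytes. Epicardium held 382, 317, 381 and 408 CPM, the highest level outside muscle, fibroblasts 54.5 to 92.3 CPM, and the endothelial classes 6.83 to 34.3 CPM. Free RNA of abundant cells can reach any droplet, so *Fabp3* was also counted per 1000 UMIs of the 10 cardiomyocyte markers. That ratio was 23.2 to 30.3 in cardiomyocytes, 18.7 to 25.0 in endocardium, 11.5 to 26.0 in coronary endothelium, 36.8 to 66.7 in fibroblasts and 171 to 190 in epicardium. In coronary endothelium and endocardium the ratio was thus below that of the cardiomyocytes of the same library, 4 of 4 times, and in the epicardium it came at several times that proportion in each of the 4 libraries.

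**Figure D2:**
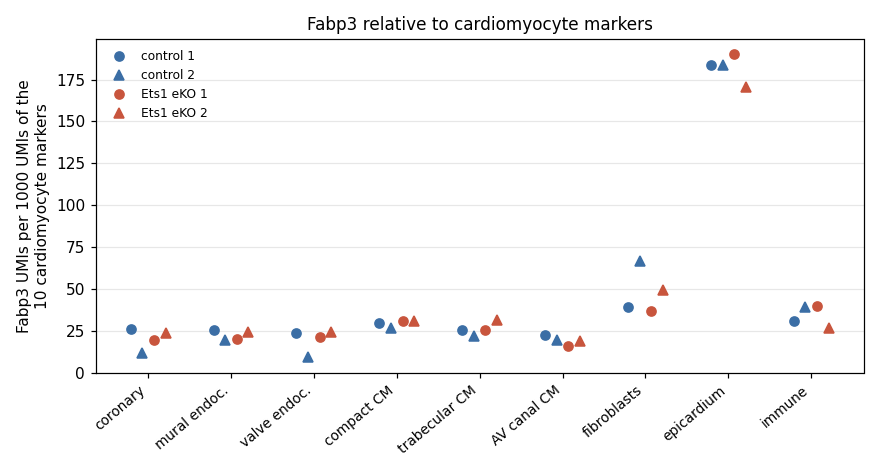
*Fabp3* UMIs per 1000 UMIs of 10 cardiomyocyte marker genes in 9 cell classes, 1 point per library (circles, replicate 1; triangles, replicate 2). The epicardial points lie at 171 to 190, and the points of coronary endothelium and endocardium lie at or below those of compact cardiomyocytes.

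Among the mitochondrial genes, *Cpt1b*, the muscle form of the carnitine transferase, was highest in cardiomyocytes: it was at 91.8, 99.9, 74.9 and 75.4 CPM there and at no more than 7.63 CPM in any other class. Its ratio to the muscle markers was 1.90, 2.12, 1.52 and 1.58 per 1000 in cardiomyocytes and 1.30 to 3.05 per 1000 in endocardium. In coronary endothelium that ratio was 2.11, 4.71, 3.03 and 1.95 per 1000, above the cardiomyocytes of the same library in all 4. In immune cells it ran from 0.96 to 9.31 per 1000. The coronary values rest on only 10, 9, 8 and 8 *Cpt1b* UMIs and the immune values on 4, 5, 1 and 4. *Cpt1a*, the widely expressed form, showed no such separation. Its 9 class means lay between 14.8 and 31.8 CPM, and each class overlapped the next in order. *Acadl* was at 757, 674, 779 and 892 CPM in trabecular cardiomyocytes and 420 to 579 CPM in compact ones. It was at 111 to 165 CPM in the endothelial classes, and 55.4 to 66.2 CPM in epicardium, the lowest.

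Within the muscle wall, the uptake and oxidation genes leaned to the trabecular layer. In each library, the trabecular level was divided by the compact level of the same gene. *Cd36* gave ratios of 6.33, 7.30, 6.05 and 7.59 (6.82 ± 0.74 SD, n = 4). *Lpl* gave 2.20 ± 0.38, *Cpt1a* 1.60 ± 0.24, *Acadl* 1.47 ± 0.14 and *Cpt1b* 1.27 ± 0.06, and these 5 genes were higher in the trabecular class in 4 of 4 libraries. *Fabp3* did not lean to either layer (0.97 ± 0.11, higher in 1 of 4 libraries). Both states were gated on other genes, compact cells on *Hey2*, *Tnnt1* and *Mycn* and trabecular cells on 6 genes such as *Nppa* and *Bmp10*, and the ratios are a description of 4 pools. The *Cd36* ratios of controls and *Ets1* eKO overlapped.

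**Figure D3:**
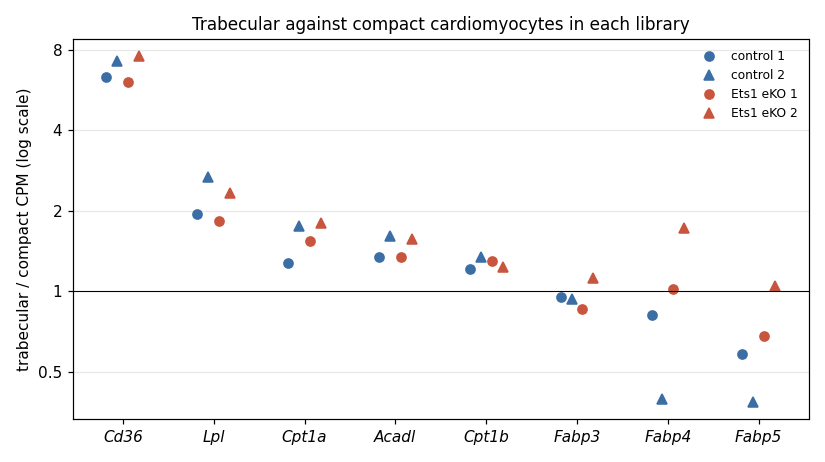
Ratio of the trabecular to the compact level (CPM, log axis) of 8 genes in each library. The *Cd36* points lie between 6.05 and 7.59, all *Lpl*, *Cpt1a*, *Acadl* and *Cpt1b* points lie above 1, and those of *Fabp3*, *Fabp4* and *Fabp5* lie on both sides of 1.

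The first comparison asked whether these genes differed in the coronary endothelium between *Ets1* eKO and control. None of the 8 members tested passed the threshold in edgeR (*Cpt1b* was too low to test), with 3 at an unadjusted p under 0.05, where edgeR called 0.705% of 11064 genes and 11.4% had such a p. *Fabp5*, at 3277 and 3302 CPM against 4781 and 5696 CPM (controls first), had a log2 fold change of 0.75 ± 0.17 (SE; edgeR adjusted p = 0.090). DESeq2 called it (0.76 ± 0.17, adjusted p = 0.0018) and no other member. *Gpihbp1*, at 247 and 195 CPM against 143 and 136 CPM, had a log2 fold change of -0.59 ± 0.16 (edgeR adjusted p = 0.16), and *Fabp4* one of 0.53 ± 0.18 (edgeR adjusted p = 0.30). For these 3 genes and *Lpl* the groups did not overlap, which was so of 4 of 8 members and of 44.7% of all genes tested. *Cd36* (0.28 ± 0.16), *Acadl* (0.26 ± 0.17), *Fabp3* (0.40 ± 0.39) and *Cpt1a* (-0.08 ± 0.22) overlapped between groups.

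These coronary calls depended on the fit. With no filter on low counts, or without either *Ets1* eKO library, 3 members were called: *Fabp5*, *Fabp4* and *Gpihbp1*. More genes were called in general under these settings, 1.58% of 19042 with no filter, 6.92% of 11629 without *Ets1* eKO 1 and 3.01% of 11438 without *Ets1* eKO 2. Without *Ets1* eKO 1 their log2 fold changes were 0.90, 0.67 and -0.60, and without *Ets1* eKO 2 they were 0.61, 0.38 and -0.57. Without control 1 the *Fabp3* value was 1.58, against the 7.27 CPM of control 2 alone, and without control 2 its sign turned (-0.10). The cardiomyocyte markers in these cells moved in the same order as *Fabp3*, at 899, 632, 784 and 1082 CPM, and their part in the *Fabp3* values was not tested. The 14 coronary markers were at 2042, 1801, 1662 and 1584 CPM, with 3 of the 14 higher in both *Ets1* eKO libraries. Fibroblast markers were at 77.0, 71.4, 44.5 and 39.1 CPM, and immune markers at 24.5, 18.5, 14.2 and 14.5 CPM. These sums were lower in both *Ets1* eKO libraries, while the epicardial sums overlapped. Their part in the *Gpihbp1*, *Fabp5* and *Fabp4* values was not tested.

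**Figure D4:**
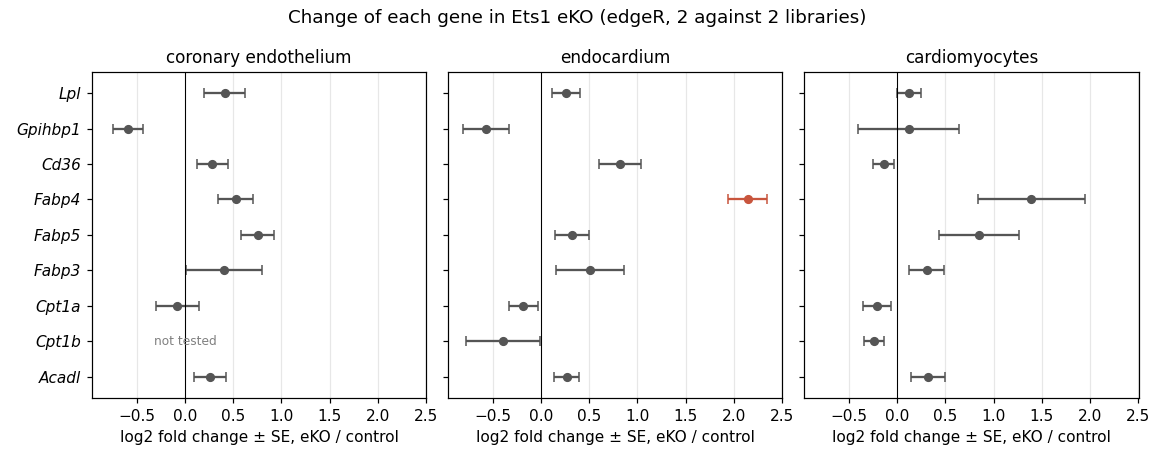
Log2 fold change (*Ets1* eKO over control) with its standard error for each gene in coronary endothelium, endocardium and cardiomyocytes, from edgeR on 2 against 2 libraries, on a common axis. *Fabp4* in endocardium, in red, at 2.14, is the only value past an adjusted p of 0.05.

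The share of coronary cells with a UMI, after thinning every cell to 2000 UMIs, gave the same genes a second reading. For *Gpihbp1* the control shares of 33.9% and 27.5% compared with 23.9% and 19.6%, with at most 0.09% of cardiomyocytes as background. For *Cd36* it was 28.5% and 22.2% against 30.5% and 32.4%, with 0.15% to 0.98% in fibroblasts. The groups did not overlap for either gene, in opposite directions. With the gate 2 times as strict they overlapped for both at 2000 UMIs. *Gpihbp1* was then at 33.3% and 24.5% against 27.5% and 28.4%, and *Cd36* at 33.3% and 23.5% against 32.8% and 32.3%. At other depths under this gate *Gpihbp1* did not overlap. It was at 17.4% and 18.6% against 11.5% and 13.2% with 1000 UMIs, and 76.3% and 80.4% against 64.9% and 48.6% with all UMIs. With 1000 UMIs and the first gate it overlapped (20.1% and 11.6% against 13.7% and 10.7%). *Lpl* UMIs were in 1.57% and 1.93% against 3.16% and 4.35% of coronary cells, but fibroblasts gave 1.75% to 2.85%, so this is near background. *Fabp5* was in 93.7% to 98.7% of the coronary cells of each library. With 2 libraries per group an exact permutation test (two-sided) cannot give a p below 0.33, which was the value for *Gpihbp1*, *Cd36* and *Lpl*, and it was 0.667 for *Fabp4* and *Fabp5*. Exact 95% binomial intervals cover counting error only, and for *Gpihbp1* they were 29.2% to 38.9% in control 1 and 16.04% to 23.5% in *Ets1* eKO 2.

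In the endocardium, *Fabp4* was higher in *Ets1* eKO. Control libraries held 42.6 and 41.8 CPM (403 and 302 UMIs) and the *Ets1* eKO libraries 141 and 214 CPM (1183 and 2106 UMIs), and the groups did not overlap. The log2 fold change was 2.14 ± 0.20, or 4.41-fold (edgeR adjusted p = 0.0033), and under the 11 alternatives it ran from 1.62 to 2.43, called each time with an adjusted p of at most 0.020. *Fabp4* was the 1 member called of 9 tested, where 1.9% of all 13307 genes were called. The *Ets1* eKO level was still far under that of the coronary endothelium.

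The other members gave smaller differences in the endocardium. *Cd36* was at 9.84 and 6.64 CPM against 14.2 and 13.9 CPM (0.82 ± 0.22, edgeR adjusted p = 0.095). It was called with no filter on low counts (edgeR adjusted p = 0.0042) and with a replicate block (edgeR adjusted p = 0.039). Under these settings 5.53% and 4.15% of all genes were called, against 1.9% without them. The *Cd36* value was highest without control 1 (1.13) and lowest with the gate 2 times as strict (0.48). *Fabp5* was at 5653 and 5020 CPM against 5859 and 6858 CPM (0.32 ± 0.18, edgeR adjusted p = 0.34), and it was called only without *Ets1* eKO 1 (0.45). *Gpihbp1* was at 8.89 and 11.6 CPM against 5.96 and 7.12 CPM (-0.57 ± 0.24, edgeR adjusted p = 0.22). *Fabp3* (0.50 ± 0.35) was called only without control 1 (1.28 ± 0.27), and the cardiomyocyte markers in these cells again moved in its order, at 1146, 635, 1052 and 1406 CPM. *Lpl*, *Acadl*, *Cpt1a* and *Cpt1b* had log2 fold changes from -0.40 to 0.27, none called. For 7 of 9 members the groups did not overlap, against 53.4% of all genes.

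The *Fabp4* UMIs of the endocardium sat in few cells. Cells with at least 10 *Fabp4* UMIs per 10000 of their UMIs numbered 6 of 1109 in control 1 (0.54%, exact 95% interval 0.20% to 1.17%) and 8 of 810 in control 2 (0.99%, 0.43% to 1.94%). They numbered 22 of 1005 in *Ets1* eKO 1 (2.19%, 1.38% to 3.30%) and 66 of 1840 in *Ets1* eKO 2 (3.59%, 2.78% to 4.54%). The groups did not overlap, and the exact permutation p was 0.33, the smallest possible here. Cells were not thinned for these levels. The median endocardial cell held 4467.5 UMIs in *Ets1* eKO 2 against 7024 to 7522.5 UMIs in the others. Fewer *Fabp4* UMIs thus took a cell of that library past a level, and the part of depth in these shares was not tested. These cells held 30.5%, 56.3%, 62.9% and 75.0% of the endocardial *Fabp4* UMIs of their libraries. The remaining endocardial cells were at 29.8, 18.5, 53.8 and 56.1 CPM. Below a level of 5 per 10000, endocardial cells were at 24.4, 14.8, 34.5 and 35.2 CPM. Cardiomyocytes below that same level were at 10.8, 6.66, 8.08 and 15.4 CPM. The whole fibroblast class, with no cells removed and so not a like set, was at 24.7, 9.51, 30.6 and 43.3 CPM.

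**Figure D5:**
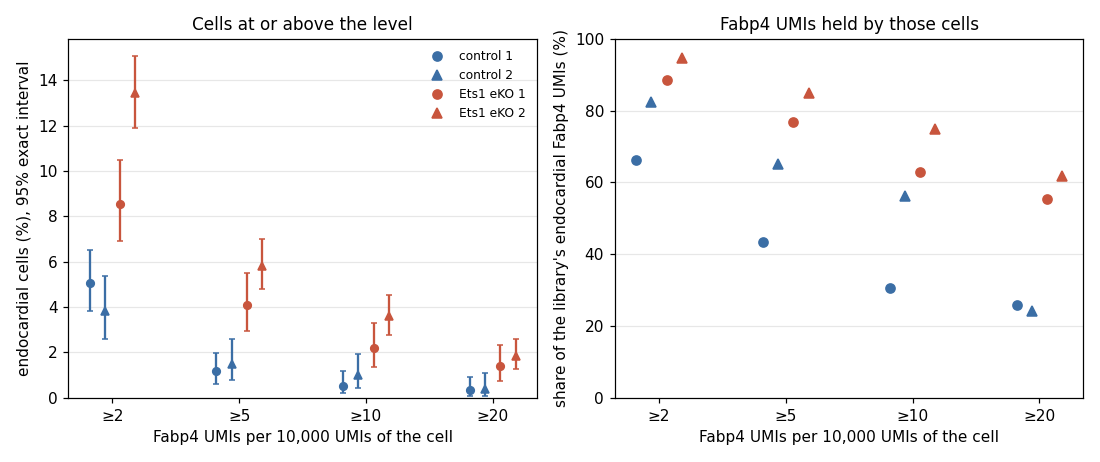
Left, percent of endocardial cells at or above 4 levels of *Fabp4* (UMIs per 10000 UMIs of the cell) in each library, with exact 95% binomial intervals; right, percent of the library's endocardial *Fabp4* UMIs in those cells. At 10 per 10000 the control libraries are at 0.54% and 0.99% of cells and the *Ets1* eKO libraries at 2.19% and 3.59%. Cells were not thinned, and those of *Ets1* eKO 2 were the shallowest.

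Other genes in these *Fabp4*-rich endocardial cells, 14 in controls and 88 in *Ets1* eKO, are given as values of cells chosen by *Fabp4*. The mural endocardial marker *Npr3* was at 344 CPM in the rich cells and 777 CPM in the rest of the control endocardium, and at 438 against 640 CPM in that of *Ets1* eKO. The endothelial junction gene *Cldn5*, a coronary marker here, was at 46.9 against 9.42 CPM in controls and at 37.3 against 5.99 CPM in *Ets1* eKO. *Cd36* was at 15.6 against 8.40 CPM in controls and at 63.2 against 12.1 CPM in *Ets1* eKO, and *Gpihbp1* at 78.1 against 9.55 CPM and at 37.3 against 5.36 CPM. The 14 coronary markers together summed to 554 against 463 CPM in controls and 547 against 410 CPM in *Ets1* eKO. The endocardial markers together summed to 4505 against 5588 CPM and 3166 against 4560 CPM. The gate limits both sums, since it admitted cells with few coronary against endocardial markers. The control values rest on few cells. Over the whole endocardial class, the 14 coronary markers summed to 477, 446, 422 and 410 CPM, lower in both *Ets1* eKO libraries, with 5 of the 14 higher in both and none at 0. The 10 fibroblast and mesenchyme markers summed to 662, 596, 867 and 780 CPM, higher in both *Ets1* eKO libraries, with 4 of the 10 higher in both. The part of this shift in the *Fabp4* result was not tested. Endothelial cells between the limits of both linings, which were left out, made up 5.51% and 6.87% of endothelial cells in controls and 7.79% and 9.73% in *Ets1* eKO, so they did not overlap and ran in the direction of *Fabp4*. Doublets were not called, and neither their part nor that of cells on the border of the 2 gates in the *Fabp4* result was tested. When the gate was set 2 times as strict, the *Fabp4* log2 fold change was 1.62 (edgeR adjusted p = 0.020).

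The difference between both linings was tested in 1 model with library and class as terms. The *Ets1* eKO effect on *Fabp4* was smaller in coronary endothelium than in endocardium, with a difference (coronary minus endocardium) of -1.59 ± 0.12 on the log2 scale (edgeR adjusted p = 5.4e-07), and this was called under all 10 alternatives. The effect on *Fabp5* was larger in coronary endothelium, by 0.45 ± 0.08 (edgeR adjusted p = 0.0052), but it was not called without *Ets1* eKO 1 (0.45, adjusted p = 0.082) or without *Ets1* eKO 2 (0.41, adjusted p = 0.28). So 2 of 9 members were called, where 1.6% of 13227 genes were. For *Cd36* the difference was -0.52 ± 0.16 (edgeR adjusted p = 0.14), and for *Gpihbp1* it was -0.04 ± 0.24 (edgeR adjusted p = 0.99). The endocardial and coronary cells came from the same 4 libraries, and the library term takes up what they share.

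In cardiomyocytes, which Tie2Cre is not known to mark, no member was called, and neither was any gene: edgeR called 0.0% of 16583 genes, with 1666 at an unadjusted p under 0.05, and DESeq2 called 27. *Fabp3* was at 1342 and 1094 CPM against 1345 and 1447 CPM (0.31 ± 0.18), *Acadl* at 658 and 536 against 660 and 716 CPM (0.31 ± 0.18), and *Cpt1b* at 91.8 and 99.9 against 74.9 and 75.4 CPM (-0.24 ± 0.11, edgeR adjusted p = 0.47). *Lpl* (0.12 ± 0.12), *Cd36* (-0.14 ± 0.11) and *Cpt1a* (-0.21 ± 0.14) were not called either. For 5 of 9 members the groups did not overlap, against 47.9% of genes.

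The values of *Fabp4* and *Fabp5* in cardiomyocytes rested on *Ets1* eKO 2. *Fabp4* was at 18.7, 10.3, 16.3 and 54.5 CPM and *Fabp5* at 106, 87.5, 87.7 and 233 CPM, so that the groups overlapped. Without *Ets1* eKO 1 the log2 fold changes of *Fabp4* and *Fabp5* were 2.01 and 1.40, and without *Ets1* eKO 2 they were 0.23 and -0.06. That library also had the highest immune marker sum in cardiomyocytes (12.9 against 4.37 to 5.63 CPM), the largest share of cells past the gates of 2 lineages (6.09% against 3.22% to 4.45% of kept cells), and the highest level of the endothelial gene *Tcf15* in cardiomyocytes (2.23 against 0.38 to 0.88 CPM). Its coronary markers there were not higher (41.1 against 36.7 to 58.4 CPM). The part of free RNA and of doublets in these values was not tested.

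The cardiomyocyte states and the remaining classes gave no call among the members either. Compact cardiomyocytes (8 members tested; 0.0% of 13889 genes called, 1151 at an unadjusted p under 0.05, 5 by DESeq2), trabecular cardiomyocytes (8 tested; 0.0401%), fibroblasts (8 tested; 0.0201%), epicardium (7 tested; 0.0897%) and immune cells (7 tested; 0.135%) were fitted separately. *Fabp4* had positive log2 fold changes throughout: 0.59 ± 0.47 in compact and 1.87 ± 0.64 in trabecular cardiomyocytes, 1.19 ± 0.40 in fibroblasts, 1.82 ± 0.44 in epicardium and 0.36 ± 0.47 in immune cells. Without *Ets1* eKO 2 the compact value turned to -0.51, the trabecular value was 0.03 and the immune value -0.14. In trabecular cardiomyocytes *Fabp4* was called with a replicate block (1.498) and with no filter on low counts (1.88), and so was *Fabp5*. Of all genes there, 0.859% and 1.3% were called under these settings, against 0.0401% without them. The *Fabp4* value was 2.95 without control 1, 1.38 without control 2 and 2.57 without *Ets1* eKO 1. *Fabp5* there was at 54.6, 36.9, 54.1 and 225 CPM (1.72 ± 0.50, edgeR adjusted p = 0.33). It was high in *Ets1* eKO 2 alone, and without that library its value was 0.28. Without *Ets1* eKO 1 the *Fabp4* value was 1.20 in compact cardiomyocytes and 2.26 in epicardium, and without control 1 it was 2.08 in fibroblasts. DESeq2 called no member in these 5 classes. *Cd36* in immune cells was at 202 and 293 CPM against 166 and 145 CPM (-0.63 ± 0.22, edgeR adjusted p = 0.90), with groups that did not overlap, which was so of 4 of 7 members and of 32.5% of genes there. In trabecular cardiomyocytes it was so of 4 of 8 members and of 48.2% of genes.

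A further 54 genes of fatty acid handling were listed by role: uptake and lipoproteins, binding and activation, the carnitine shuttle, beta-oxidation and regulators. In the coronary endothelium 43 were tested and none was called in either direction by edgeR, with 5 at an unadjusted p under 0.05 and none called by DESeq2, where 11.4% of all genes tested had such a p and DESeq2 called 0.452%. In the endocardium 49 were tested and none was called by edgeR, with 13 at an unadjusted p under 0.05, and DESeq2 called 2, *Dbi* and *Tcf15*, where 21.0% of all genes tested had such a p and DESeq2 called 2.83%. In cardiomyocytes 50 were tested and none was called by either tool, with 3 at an unadjusted p under 0.05, against 10.0% of all genes tested. Their median log2 fold change was 0.11 in coronary endothelium, 0.12 in endocardium and 0.10 in cardiomyocytes, beside 0.01, 0.00 and 0.02 over all genes. With libraries scaled to total UMIs, these medians were 0.02, 0.06 and -0.01, beside -0.07, -0.06 and -0.10 over all genes. In the test between both linings 1 of 48 listed genes was called, a share near the 1.6% of all genes. It was *Meox2*, which with TCF15 is known to drive fatty acid transport genes in heart endothelium.

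*Meox2* was at 86.1, 79.0, 95.2 and 98.6 CPM in the coronary endothelium and at 0.53, 0.55, 1.91 and 2.85 CPM in the endocardium, the latter from 5, 4, 16 and 28 UMIs. The log2 fold change was 0.31 ± 0.14 in coronary endothelium (edgeR adjusted p = 0.44) and 2.19 ± 0.49 in endocardium (edgeR adjusted p = 0.062), and the difference was -1.86 ± 0.44 (edgeR adjusted p = 0.034). That difference was not called by DESeq2, without control 1 (-1.75), without *Ets1* eKO 2 (-1.58), with tighter limits on cells (-1.89) or with the gate 2 times as strict (-0.88). *Tcf15* was at 36.0 and 48.1 CPM in control and 57.7 and 89.5 CPM in *Ets1* eKO endocardium, without a call by edgeR. In the *Fabp4*-rich endocardial cells, *Meox2* was at 23.4 CPM in controls and 35.9 CPM in *Ets1* eKO, against 0.36 and 1.08 CPM in the rest. These values pool the libraries of a group. The rich cells were 14 in controls, whose whole endocardium held only 5 and 4 *Meox2* UMIs. They were 88 in *Ets1* eKO, 66 of them from *Ets1* eKO 2.

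The genes most like *Fabp4* over 36 class-by-library levels (9 classes, 4 libraries, log2(CPM + 1), Pearson's r) were *Prnd* (0.95), *9230102K24Rik* (0.93), *Clec1b* (0.93), *Nos2* (0.93) and *Gpihbp1* (0.92), so that 1 of the 5 was a member. Those most like *Fabp3* were the desmin gene *Des* (0.98), the muscle glycolytic gene *Pgam2* (0.98), *Hspb2* (0.98), *Snap91* (0.98) and *Ldhb* (0.97). The points share libraries and their depth, and the values are a description.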

How the data were processed

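The authors deposited, per library, a matrix of UMI counts per gene and barcode, made with Cell Ranger 7.1.0 on mm10 (Seurat 4.3.0 is also named in the submitters' processing notes) and not normalized. The matrices hold whole counts of called cells, and the study's methods name a correction for background RNA (CellBender) and a removal of doublets (DoubletFinder). Whether the deposited matrices come from before or after these steps is not given in the sources used here. Cells were kept by the study's limits of 200 to 7000 genes and at most 20% mitochondrial, 35% ribosomal and 2% hemoglobin UMIs. The study's limits on exon ratio and on read numbers were not applied. A floor of 2000 UMIs was also set, which left 9801, 6495, 7872 and 12240 cells. That floor was added here.

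Cells were gated without clustering, by UMIs of marker lists per 10000 UMIs (at least 128 for cardiomyocytes, 16 endothelial, 24 fibroblast, 12 epicardial, 24 immune). Cells past the gates of 2 lineages (1712) or of none (425) were left out, and cells past both the epicardial and fibroblast gates were counted as epicardium. Endothelial cells were split at a log2 ratio of 1 between coronary and endocardial lists, and 519 of 6618 between the limits were left out. The gate values were chosen after the marker distributions were seen. The members and lists were chosen with earlier results of these data known. No doublet caller was run.

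Sums of UMIs by class and library were compared in R 4.3.3 with the quasi-likelihood test of edgeR 4.0.16 (TMM, filterByExpr), n = 2 against 2, with Benjamini-Hochberg adjustment over all genes tested and a threshold of 0.05. The SE is the log2 fold change divided by the square root of its F. Alternatives were DESeq2 1.42.0, total UMI scaling, no filter (at least 1 UMI), a replicate block, each library left out, gates 2 times as strict, cells of 2 lineages kept, and tighter limits on cells (1000 genes or more, 10% mitochondrial UMIs or less). Shares used cells thinned to 2000 UMIs (1000 or all UMIs as alternatives; seed 0). The fits were tested on simulated data with 200 changed genes. All 9 members, the listed genes past the threshold and the 5 genes most like *Fabp4* and *Fabp3* (at least 10 CPM in a class) are named by rule; other genes were named after their values were seen. Positions are from GENCODE vM21, promoters from RefSeq. Python 3.11.15, numpy 2.4.6, pandas 2.3.3, scipy 1.17.1 and matplotlib 3.10.9 were used.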

Additional observations from a re-analysis of the deposited data

Results flagged for a closer look

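The *Ets1* eKO effect differed between coronary endothelium and endocardium, by a test of the difference itself, for 3 of the members and listed genes, where 1.6% of all genes were called. For *Fabp4* the difference was -1.59 on the log2 scale, for *Fabp5* 0.45 and for *Meox2* -1.86. The *Meox2* value rests on 5 and 4 UMIs in the control endocardium, and 5 of its 10 alternatives did not pass the threshold. The *Fabp5* value did not pass it without *Ets1* eKO 1 or without *Ets1* eKO 2.

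*Cd36* had values of opposite sign in 4 classes where its groups did not overlap, which was so of 53.4% of all genes in endocardium, 47.9% in cardiomyocytes, 48.2% in trabecular cardiomyocytes and 32.5% in immune cells. Its log2 fold change was 0.82 in endocardium, -0.14 in cardiomyocytes, -0.26 in trabecular cardiomyocytes and -0.63 in immune cells. None of these passed the threshold in its class, and the differences between them were not tested.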

How the results depend on the processing

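*Fabp4* in endocardium and the difference of its effect between both linings kept their direction and call under every alternative run. The number of members called moved in other classes. By DESeq2 it was 1 in coronary endothelium, where DESeq2 called 0.452% of all genes. With no filter on low counts it was 3 in coronary endothelium, 2 in endocardium, 1 in compact and 2 in trabecular cardiomyocytes, 1 in fibroblasts and 1 in epicardium, while the shares of all genes called were 1.58%, 5.53%, 0.663%, 1.3%, 2.32% and 0.346% in the same order, against 0.705%, 1.9%, 0.0%, 0.0401%, 0.0201% and 0.0897% with the filter. The replicate block gave 2 in endocardium, 2 in trabecular cardiomyocytes and 1 in epicardium, where 4.15%, 0.859% and 0.319% of all genes were called, and changed no other call of a member named in the report. Same-numbered libraries did not deviate together (correlations of -0.09, -0.04 and -0.18 across genes in coronary endothelium, endocardium and cardiomyocytes). With 2 libraries a group, these values cannot settle whether the numbers pair the pools. A crossed replicate block, added after seeing the data, called 1 member in cardiomyocytes, *Fabp4*, and 0.139% of all genes, with 18.4% at an unadjusted p under 0.05 against 10.0% without it.

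Leaving out 1 library at a time gave 0 to 3 members in coronary endothelium, 1 to 3 in endocardium, 0 to 2 in cardiomyocytes, 0 to 4 in compact and in trabecular cardiomyocytes, 0 to 2 in fibroblasts, 0 to 1 in epicardium and 1 to 2 for the difference between both linings. Without *Ets1* eKO 1 the share of all genes called was 6.92% in coronary endothelium, 7.24% in endocardium, 6.46% in cardiomyocytes, 10.4% in compact and 19.2% in trabecular cardiomyocytes. With a library left out it was 0.129% to 2.32% in fibroblasts, the highest without control 1, 0.199% to 0.755% in epicardium and 0.924% to 3.3% for the difference between both linings. Leaving out a library turned the sign of values that were not called with all 4 libraries. In coronary endothelium these were *Fabp3* (-0.10 to 1.58) and *Cpt1a* (-0.30 to 0.12), and in endocardium *Cpt1b* (-0.66 to 0.043). In cardiomyocytes they were *Fabp5* (-0.057 to 1.40) and *Gpihbp1* (-0.34 to 0.95). In compact cardiomyocytes they were *Fabp4* (-0.51 to 1.20), *Fabp5* (-0.16 to 1.29) and *Cd36* (-0.56 to 0.039), and in immune cells *Fabp4* (-0.18 to 1.99). A group left with 1 library is assumed to vary like the other. *Cpt1a* in coronary endothelium was 0.13 with the gate 2 times as strict, and *Gpihbp1* in cardiomyocytes -0.65 with cells of 2 lineages kept.

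The difference in the share of coronary cells with a UMI (eKO minus control, percentage points) turned negative with all UMIs for *Fabp4* (-0.39), *Cd36* (-0.23) and *Lpl* (-1.37), and for *Fabp4* with the stricter gate (-0.26). For *Gpihbp1* the stricter gate moved it from -9.03 to -0.98 in cells thinned to 2000 UMIs. At other depths under that gate the *Gpihbp1* groups did not overlap. The shares were 17.4% and 18.6% in controls against 11.5% and 13.2% in *Ets1* eKO with 1000 UMIs. With all UMIs they were 76.3% and 80.4% against 64.9% and 48.6%. Under the first gate they were 75.5% and 74.4% against 58.2% and 46.5% with all UMIs, and overlapped with 1000 UMIs. For *Fabp5* the difference in the share ran from -0.061 to 3.35 with a library left out. The cause of these shifts was not tested. With 2 libraries a group, small changes were mostly missed in the simulated data with 200 changed genes. At a log2 fold change of 0.5 the fits recovered 11 of them in coronary endothelium, 8 in endocardium and 0 in cardiomyocytes. Beside these, 4, 4 and 0 unchanged genes were called. At a log2 fold change of 1 they recovered 141, 137 and 111, beside 15, 8 and 8 calls of unchanged genes.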
